A study of Schizosaccharomyces pombe with 37 samples.

Results

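The RNA of 7 fission yeast genes that encode the core exosome and the TRAMP complex was followed across wild-type *S. pombe* and 9 mutant strains. The members were chosen by name, as the rows of the deposited expression table called *dis3*, *rrp41*, *mtr3*, *rrp4*, *mtr4*, *cid14* and *air1*, and all 7 of them were found among the 6996 features listed. The question read from these rows is whether the messages of the nuclear RNA decay machinery differ in mutants of the cleavage and polyadenylation factor (CPF), in which more antisense RNA was counted.

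The exosome is a ring of proteins related to RNase PH, topped by a cap of RNA-binding proteins, and RNA is threaded through it to a processive nuclease that digests it from the 3′ end. In the nucleus it trims ribosomal and small nucleolar RNA precursors and removes antisense and other unstable transcripts. TRAMP helps it: a poly(A) polymerase adds a short tail to the target, a zinc-knuckle protein binds the RNA, and a helicase unwinds it. In fission yeast this machinery also removes RNA made in heterochromatin and limits the entry of other RNAs into RNAi.

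All strains, wt included, were of mating type *h-*, carried the alleles *ura4-D18*, *leu1-32* and *ade6-704* with an *ade6+* reporter placed at *trp1+* (*trp1+::ade6+*), and held no *ade6-hp* source of primary siRNAs. Cultures grew exponentially in YES medium at 30 °C. Wild type (wt) was compared with the point mutants *yth1-R59C* and *pfs2-F115H*, whose products sit in the polymerase module of CPF, the latter marked with *kanMX*. It was also compared with *kanMX* deletions of phosphatase-module genes, *ssu72D*, *dis2D*, *swd22D* and, by its label, *ppn1D*. The mutants *PAS-T4A*, *PAS-T4C* and *PAS-T4G* have wild-type CPF and a single changed base in the polyadenylation signal (PAS) of the *ade6+* reporter. Each genotype was 1 strain with 3 libraries. Nothing in the labels says that these came from separate cultures, so every p-value measures the spread between these libraries, which may be technical.

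Total RNA was sequenced on the transcribed strand and is given as CPM, the reads of a gene scaled to 1000000 counted reads in each library. The 30 libraries held between 1031965 and 6344396 counted reads, with 1031965 to 1727951 in *swd22D* and 3713098 to 6344396 in wt. Markers of the M mating type summed to between 82.1 and 168 CPM per library and those of the P mating type to between 7.52 and 21.4 CPM, and 5 genes of meiosis and sporulation summed to between 40.7 and 91.1 CPM, 1 of them with a mean of at most 1 CPM. The last sum lay above the wt libraries (48.4 to 51.7 CPM) in every library of *yth1-R59C* (61.7 to 66.0), *pfs2-F115H* (74.9 to 91.1), *ssu72D* (60.3 to 74.0) and *dis2D* (65.9 to 79.0) and overlapped them in the other strains. The mitochondrial share of reads was 10.8% to 11.9% in wt and higher, with no overlap, in *pfs2-F115H* (12.4% or more) and *dis2D* (13.2% or more). It was lower, with no overlap, in *PAS-T4C* (8.61% to 10.6%), and spread from 8.01% to 14.0% in the libraries labelled *ppn1D*. *ssu72*, *dis2* and *swd22* had 0 reads in every library of their own deletion. *ppn1* was read at 76.3 to 86.1 CPM in the libraries labelled *ppn1D*, against 73.2 ± 9.07 CPM in wt (SD, n = 3), so these libraries go against their label and are named by it only. *pfs2* RNA was at 23.3 ± 3.15 CPM in *pfs2-F115H* and 42.5 ± 4.66 CPM in wt (SD, n = 3 each).

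By the RefSeq annotation (ASM294v3), *rrp41* (SPAC3G9.10c), *rrp4* (SPAC2F7.14c), *mtr4* (SPAC6F12.16c) and *cid14* (SPAC12G12.13c) lie on chromosome I, and *dis3* (SPBC26H8.10), *mtr3* (SPBC211.08c) and *air1* (SPBP35G2.08c) on chromosome II. All 7 members were read in every library, with 41 reads or more behind each value. Their lowest value in any library was 32.5 CPM for *air1*, and all passed the filter of a mean of 1 CPM that left 5911 features for testing. Their mean levels lay between the 51.2nd and 92.2nd percentile of the tested features. Per kilobase of exon in wt, *mtr4*, the RNA helicase of TRAMP, had the highest level of the 7 at 111 ± 7.58 CPM per kilobase. *cid14*, the poly(A) polymerase of TRAMP, followed at 83.1 ± 2.99 and *dis3*, the catalytic nuclease of the exosome, at 74.6 ± 4.39 CPM per kilobase (SD, n = 3). The ring subunits *mtr3* and *rrp41* had 51.7 ± 4.53 and 43.7 ± 7.54 CPM per kilobase, the cap subunit *rrp4* 42.6 ± 2.00, and *air1*, the zinc-knuckle subunit of TRAMP, 37.9 ± 2.10 (SD, n = 3). The place of *rrp41* among the last 4 is not settled, since it overlaps *mtr3*, *rrp4* and *air1* within 1 SD, while those genes do not overlap each other.

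**Figure D1:**
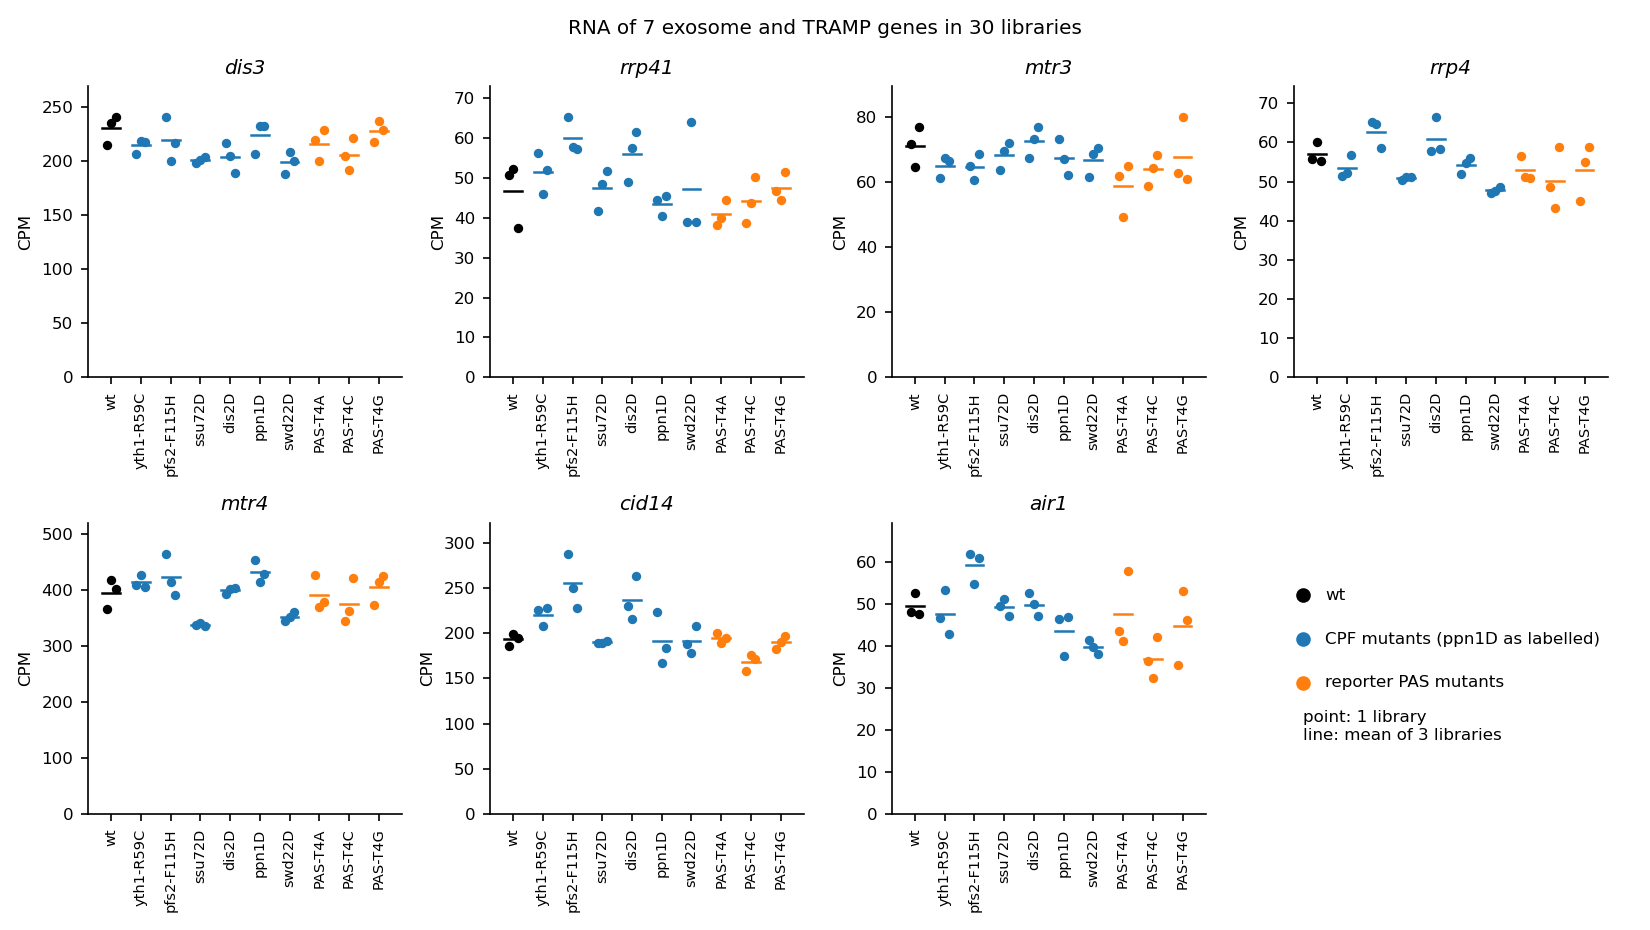
Level of each of the 7 members in CPM (vertical axis, from 0) in 30 libraries, by strain (horizontal axis); points are libraries, lines the means of 3, black is wt, blue the CPF mutants with *ppn1D* as labelled, and orange the reporter PAS mutants. The *cid14* points of *pfs2-F115H* and *dis2D* lie above the wt points, and the *mtr4* points of *ssu72D* between 336 and 342 CPM lie below them.

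Differences among the members were small. In 63 comparisons of a member with wt (7 members, 9 mutants), 4 passed an adjusted p of 0.05 in the limma fit over all 5911 features, and 5563 of the 53199 comparisons over all tested features did (10.5%). The comparisons share the 3 wt libraries. The 4 were higher *cid14* in *pfs2-F115H* and *dis2D*, lower *mtr4* in *ssu72D* and lower *dis3* in *swd22D*. Thus 1 of 7 members was called in each of *pfs2-F115H*, *dis2D*, *ssu72D* and *swd22D*, where 19.0%, 12.0%, 16.8% and 20.0% of all features were, which is near the background. No member was called in *yth1-R59C* (3.86% of features), the libraries labelled *ppn1D* (2.44%), *PAS-T4A* (7.34%), *PAS-T4C* (3.77%) or *PAS-T4G* (8.88%). All 63 differences were smaller than 1.5-fold, as were 92.6% of those over all tested features. Each member's largest difference from wt in any mutant was between 0.21 and 0.42 on the log2 scale, and the median of this value over the 5911 features was 0.42. Differences are on the scale of log2(CPM + 1), with moderated standard errors between 0.07 and 0.15 for these genes. The 59 comparisons that missed the threshold had 95% intervals that reached from -0.69 to 0.67, so that changes beyond 0.62-fold or 1.59-fold lie outside all of them and smaller ones do not. In RNA from whole cultures, fewer cells with a transcript and less transcript per cell cannot be told apart.

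**Figure D2:**
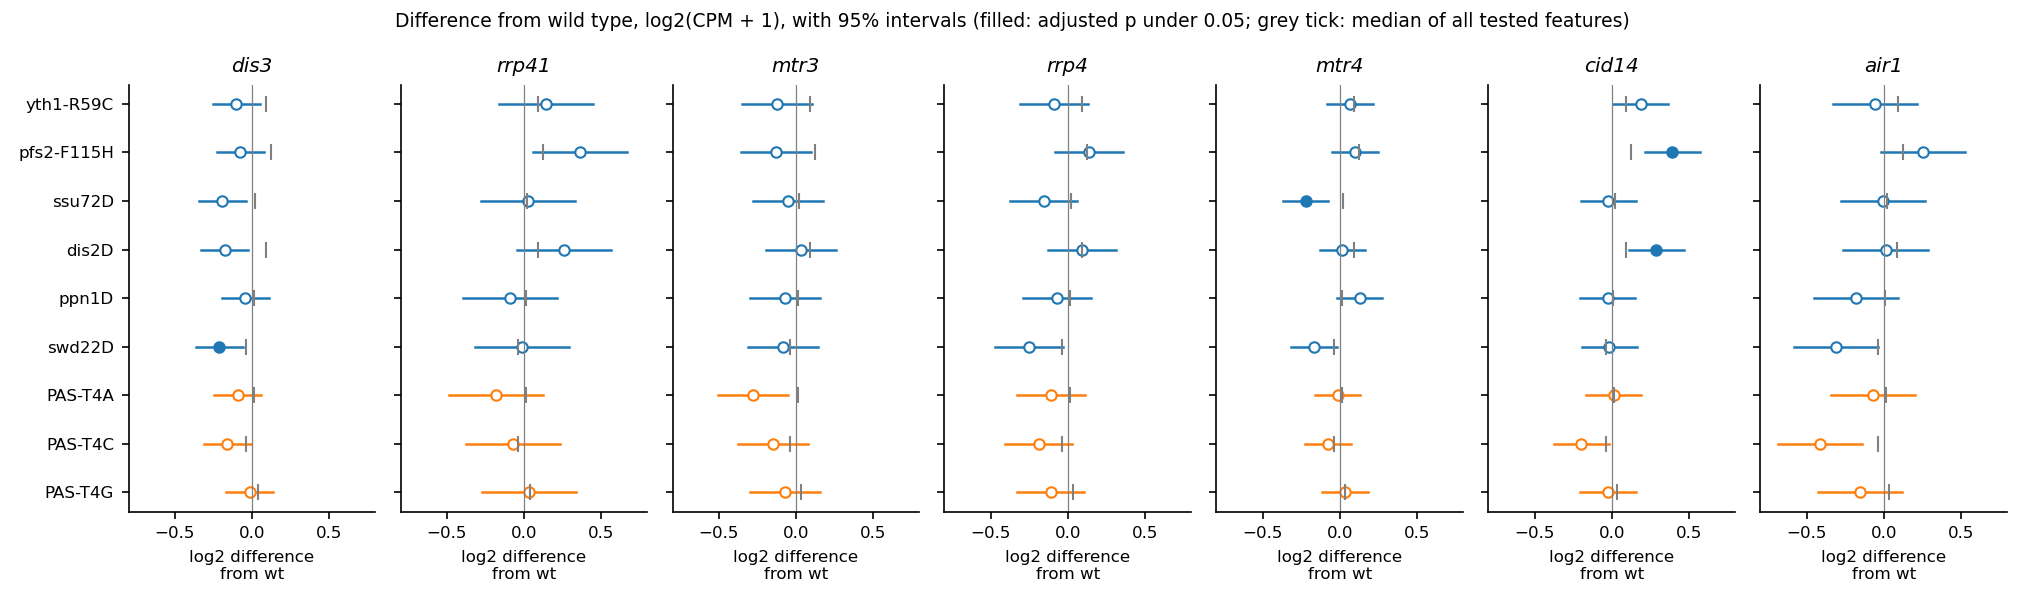
Difference of each member from wt on the log2(CPM + 1) scale (horizontal axis) in each mutant (vertical axis), with 95% intervals. Blue marks CPF mutants, with *ppn1D* as labelled, and orange PAS mutants. Filled points passed an adjusted p of 0.05, and grey ticks give the median of all tested features. Of 63 points 4 are filled, at 0.39, 0.29, -0.22 and -0.21.

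Of the members *cid14* had the lowest adjusted p. It gave 186, 199 and 195 CPM in wt and 288, 249.6 and 228 CPM in *pfs2-F115H*. Every *pfs2-F115H* library lay above every wt library, as for 28.5% of features. The difference was 0.39 on the log2 scale (SE 0.09, 1.31-fold, limma adjusted p = 0.00173), in a comparison where 14.1% of features were called higher. The median of all features was itself 0.12 higher in *pfs2-F115H*, where 835 features were called higher and 287 lower. Median-of-ratios scaling removed this shift and left 419 higher and 557 lower calls. In the deposited units *cid14* stood 0.27 above that median. The call held in 12 of 12 other settings, with differences from 0.26 to 0.40, and in 6 of 6 fits that left out 1 wt or *pfs2-F115H* library. It was lost when replicate 1 of every strain was left out (adjusted p = 0.0721).

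In *dis2D*, *cid14* gave 231, 216 and 263 CPM, again above all wt libraries, as for 24.6% of features. The difference was 0.29 (SE 0.09, 1.22-fold, limma adjusted p = 0.0275), where 7.24% of features were called higher. This call was lost under median-of-ratios and TMM scaling, removal of the length trend, edgeR and DESeq2, with log2 differences down to 0.19. It was also lost without wt replicate 1 (adjusted p = 0.0963), wt replicate 3 (0.0765) or *dis2D* replicate 3 (0.201). *yth1-R59C* gave 225, 208 and 228 CPM, which did not overlap wt either, and 22.9% of features stood so in that strain. Its difference of 0.19 did not pass the test (limma adjusted p = 0.281, 95% interval 0.01 to 0.37). The other 6 mutants lay within 0.20 of wt on the log2 scale, the lowest being *PAS-T4C* with 158, 176 and 172 CPM (-0.20, adjusted p = 0.235). The sum of the meiosis genes was above wt in all 3 of *pfs2-F115H*, *dis2D* and *yth1-R59C*, and the mitochondrial share in the first 2 of them. The meiosis sum was above wt in *ssu72D* too (60.3 to 74.0 CPM), where *cid14* gave 189, 190 and 192 CPM, within the range of wt. The part of the meiosis sum and the mitochondrial share in the *cid14* values was not tested.

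The *yth1* and *pfs2* products belong to the module that reads the AAUAAA signal, so the annotated 3′ ends were searched for it as AATAAA on the transcribed strand. *cid14* was the only member with this hexamer in the last 60 bases of its annotated transcript (1 of 7), and 964 of 5111 protein-coding features had it there (18.9%). The match ends 5 bases before the annotated transcript end. It is shown in capitals, with flanks that run past that end (chrI:324107-324136, plus strand, RefSeq, build ASM294v3), because no other member has it there.
cid14 3′ end: tcgaataccagtAATAAAttaatcaacacc
The match is a description of letters, and its part in the level of *cid14* was not tested.

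*mtr4* gave 366, 419 and 402 CPM in wt and 338, 342 and 336 CPM in *ssu72D*, with all *ssu72D* libraries below all wt libraries, as for 19.7% of features. It was lower by 0.22 on the log2 scale (-0.22, SE 0.07, 0.857-fold, limma adjusted p = 0.0318), where 8.49% of features were called lower. The call held in 11 of 12 other settings, not under quantile normalization (-0.15, adjusted p = 0.182). It rested on few libraries: the call was lost without wt replicate 2 or 3 or any of the *ssu72D* libraries (adjusted p from 0.0666 to 0.165), and held without wt replicate 1. In *swd22D*, *mtr4* gave 344, 352 and 361 CPM, also below every wt library, and 22.0% of features stood so there. That difference of -0.17 did not pass (adjusted p = 0.107). In the other mutants *mtr4* stayed between 345 and 466 CPM and overlapped wt or missed the threshold.

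*air1* showed the largest difference of any member without passing the test. It gave 48.2, 52.6 and 47.7 CPM in wt and 36.4, 32.5 and 42.2 CPM in *PAS-T4C*, with no overlap, as for 15.2% of features. The difference was -0.42 (SE 0.13, 0.750-fold, limma adjusted p = 0.0791, 95% interval -0.69 to -0.14). edgeR on the recovered reads called it (-0.39, adjusted p = 0.0369), in a comparison where edgeR called 7.09% of features in either direction. *air1* also lay below wt in all 3 *swd22D* libraries (41.4, 39.7 and 38.2 CPM, -0.31, adjusted p = 0.104), as 22.0% of features did. It lay above wt in all 3 *pfs2-F115H* libraries (62.0, 54.9 and 60.9 CPM, 0.25, adjusted p = 0.190), as 28.5% of features did. Neither passed the test.

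Among the exosome subunits, *dis3* had the smallest ratio of highest to lowest library, 1.28, from 188 to 240.5 CPM over 30 libraries. It gave 215, 235 and 240.5 CPM in wt and 188, 208 and 199.7 CPM in *swd22D*, with no overlap, as for 22.0% of features. It was lower by 0.21 (-0.21, SE 0.08, 0.864-fold, limma adjusted p = 0.0433), where 12.9% of features were called lower, and the *swd22D* values rest on 215 to 345 reads. The call was lost under 7 of 12 other settings, among them median-of-ratios scaling, TMM scaling, edgeR and DESeq2 (adjusted p from 0.0674 to 0.110 under these 4). It was lost also without wt replicate 2 or 3 or *swd22D* replicate 1 or 3. *dis3* was at 199, 201 and 204 CPM in *ssu72D*, below every wt library as 19.7% of features were, with a difference of -0.19 that missed the threshold (adjusted p = 0.0742). In *dis2D* it was at 216, 205 and 189 CPM (-0.18, adjusted p = 0.122), with overlap. Other settings did call these lower, 5 of 12 in *ssu72D* and 6 of 12 in *dis2D*, among them edgeR, which called 26.0% and 14.0% of features in these strains. The lowest *dis2D* value was -0.28.

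*rrp41*, a ring subunit, gave 50.7, 52.0 and 37.4 CPM in wt and 65.1, 57.6 and 57.2 CPM in *pfs2-F115H*. The groups did not overlap, as for 28.5% of features in that strain, and the difference of 0.37 missed the threshold (limma adjusted p = 0.0847, 95% interval 0.06 to 0.67). Its replicates spread widely: in *swd22D* they were 38.8, 64.0 and 38.8 CPM. *rrp4*, of the RNA-binding cap, was at 55.7, 60.1 and 55.2 CPM in wt and 47.1, 47.5 and 48.6 CPM in *swd22D*, with no overlap, as for 22.0% of features. Its difference of -0.25 did not pass (adjusted p = 0.101). *mtr3*, the second ring subunit of the set, ranged from 49.2 to 80.1 CPM and was not called in any mutant, its largest difference being -0.28 in *PAS-T4A* (adjusted p = 0.129).

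A test over all 10 strains together gave more calls. The moderated F test of limma passed for *cid14* (adjusted p = 2.55e-05), *mtr4* (0.00144), *air1* (0.00546), *rrp4* (0.0454) and *rrp41* (0.0487), and not for *dis3* (0.0944) or *mtr3* (0.374). These are 5 of 7 members, and 3554 of 5911 features passed (60.1%). Under the alternatives that could be run, 2 to 5 members passed, *cid14* in each of them. By its mean log2 level *cid14* was ordered *pfs2-F115H*, *dis2D*, *yth1-R59C*, *PAS-T4A*, wt, *swd22D*, *ssu72D*, *PAS-T4G*, the libraries labelled *ppn1D* and *PAS-T4C*, from high to low. *pfs2-F115H* was also the highest strain for *rrp41*, *rrp4* and *air1*, *PAS-T4C* the lowest for *air1*, and *PAS-T4A* the lowest for *rrp41* and *mtr3*. *mtr4* was lowest in *ssu72D* and highest in the libraries labelled *ppn1D*, and wt was the highest strain for *dis3*. No 2 neighbours in any of these orders differed beyond their spread: over 63 neighbouring pairs the adjusted p ran from 0.196 upward.

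The PAS mutants offer a second control, 9 libraries with wild-type CPF. Against them 8 of 42 comparisons of a member with a CPF mutant passed, 7 higher and 1 lower. Over all features 23.9% of such comparisons passed, a share that the members did not exceed. Both counts take in the libraries labelled *ppn1D*, which go against their label. All 6 groups were compared with the same 9 libraries. *cid14* was higher in *pfs2-F115H* (0.46, SE 0.07, limma adjusted p = 6.63e-06), in *dis2D* (0.36, adjusted p = 0.000368) and in *yth1-R59C* (0.26, adjusted p = 0.0101), where 26.1%, 18.3% and 15.4% of features were called higher. These 3 calls held in 10 of 10 other settings each, and that of *yth1-R59C* was lost without its replicate 1 or 3 or without replicate 1 or 3 of every strain. All libraries of these 3 mutants lay above the 9 PAS libraries, which ran from 158 to 200.2 CPM. The share of all features that stood so was not counted, so this separation has no background beside it.

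Also in *pfs2-F115H*, *air1* was 0.47 higher (SE 0.11, adjusted p = 0.00118), *rrp41* 0.44 (SE 0.12, adjusted p = 0.00547) and *rrp4* 0.27 (SE 0.09, adjusted p = 0.0162) against the PAS mutants, which makes 4 of 7 members with *cid14*. In that comparison 26.1% of all features were called higher. The *rrp41* call was lost under quantile normalization and without the length trend, the *rrp4* call under 5 of 10 settings, and the *air1* call in none of 10. Without replicate 1 of every strain all 3 calls were lost, and *rrp41* and *rrp4* also without *pfs2-F115H* replicate 1 (adjusted p = 0.0531 and 0.0869). *rrp41* was called in *dis2D* as well (0.33, SE 0.12, adjusted p = 0.0401), where 18.3% of features were called higher. That call held in 4 of 10 other settings only, and not without *dis2D* replicate 2 or 3. *mtr4* was lower in *ssu72D* (-0.20, SE 0.06, adjusted p = 0.00749), where 16.7% of features were called lower, and this was lost under quantile normalization and without replicate 2 or 3 of every strain. No member was called in the libraries labelled *ppn1D* or in *swd22D* against the PAS mutants, where 8.24% and 18.1% of features were called in either direction.

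The 636 features that the annotation names as antisense took more of the reads in most CPF mutants. Their share was 0.374% ± 0.020 in wt, 0.580% ± 0.022 in *pfs2-F115H*, 0.525% ± 0.030 in *ssu72D*, 0.511% ± 0.011 in *yth1-R59C*, 0.452% ± 0.011 in *dis2D* and 0.422% ± 0.012 in *swd22D* (SD, n = 3). The libraries of these 5 mutants all lay above the wt libraries. An exact permutation test of 3 against 3 libraries cannot go below 0.10. In the libraries labelled *ppn1D* (0.376% ± 0.045) and the PAS mutants (0.358% to 0.392%) the ranges overlapped wt. Of the 480 antisense features that passed the filter, 121 were called higher in *pfs2-F115H*, 106 in *ssu72D*, 50 in *swd22D*, 41 in *yth1-R59C* and 31 in *dis2D*. These are 25.2%, 22.1%, 10.4%, 8.54% and 6.46%, where 14.1%, 8.27%, 7.17%, 2.84% and 7.24% of all features were called higher, so the share in *dis2D* was not above that of all features. In the same order 5, 3, 21, 0 and 10 antisense features were called lower. Without wt replicate 2 the counts in *ssu72D*, *swd22D*, *yth1-R59C* and *dis2D* were 65, 28, 24 and 17, and without *ssu72D* replicate 3 that in *ssu72D* was 68.

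**Figure D3:**
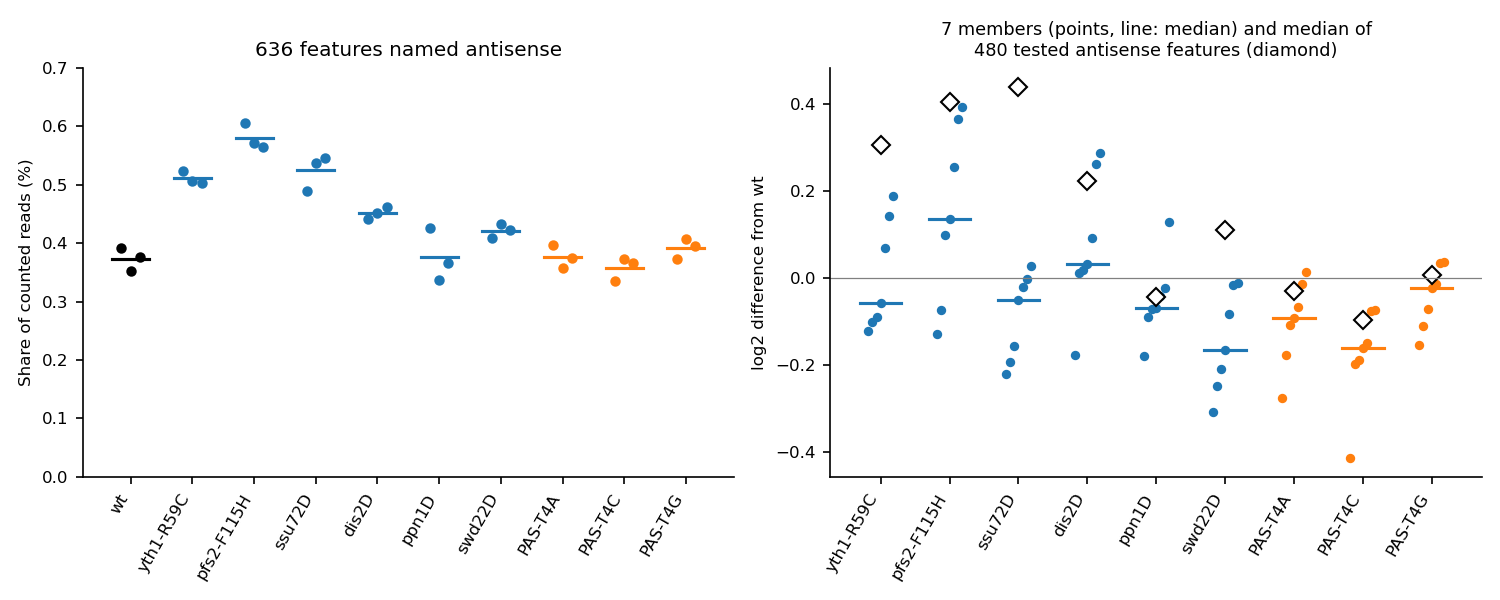
Left, share of counted reads on 636 antisense features (%, from 0) by library (points) and strain mean (lines). Black is wt, blue the CPF mutants with *ppn1D* as labelled, and orange the PAS mutants. Right, log2 difference from wt of the 7 members (points, their median as a line) and median difference of 480 tested antisense features (diamonds). In *ssu72D* the antisense median is 0.44 and the members' median -0.05.

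Beside this the members' median difference from wt was 0.14 in *pfs2-F115H*, 0.03 in *dis2D*, -0.05 in *ssu72D*, -0.06 in *yth1-R59C* and -0.17 in *swd22D*, and the medians of all tested features were 0.12, 0.09, 0.02, 0.09 and -0.04. The median of the antisense features was 0.41, 0.22, 0.44, 0.31 and 0.11 in the same order. These medians depend on the scaling. Under median-of-ratios scaling that of the members became 0.01 in *pfs2-F115H*, -0.06 in *dis2D* and -0.15 in *yth1-R59C*, so its sign in *dis2D* turned. Under quantile normalization the antisense median was 0.20 in *ssu72D* and 0.22 in *pfs2-F115H*. In *ssu72D* no member was called higher and *mtr4* was lower, a call lost under quantile normalization. Of the 5 mutants with a higher antisense share, *cid14* was called higher than wt in *pfs2-F115H* and *dis2D*, and each of the other 6 members in none. In these 2 strains 14.1% and 7.24% of all features were called higher. The *dis2D* call of *cid14* was lost under median-of-ratios and TMM scaling, removal of the length trend, edgeR and DESeq2. Whether the level of any member bears on the antisense RNA was not tested.

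The listed feature named as antisense to a member, *cid14-antisense-1*, was scarcely read: 14 reads in all, in 10 of 30 libraries, with 2 at most in any library. It fell under the filter and was not tested. The other listed features on the strand opposite a member were SPNCRNA.735 at *mtr4*, *gms2* at *cid14*, *ilv1* at *air1* and SPBC26H8.11c at *dis3*. RefSeq also places SPNCRNA.6374 and SPNCRNA.6375 opposite *dis3*, SPNCRNA.3409 and SPNCRNA.3410 opposite *rrp41*, SPNCRNA.6328 and SPNCRNA.6329 opposite *mtr3*, and SPNCRNA.2127 opposite *cid14*. These are not among the listed features, so their RNA could not be read here. Reads were counted by strand, so those of the opposite strand do not enter the members' values. By RefSeq, a neighbour on the same strand overlaps 2.25% of the *mtr3* and 0.903% of the *cid14* transcript. Reads that overlapped several genes were not counted. The authors counted with an annotation from PomBase, so whether these same stretches were left out is not known. Of the opposite-strand features only *ilv1*, a gene of isoleucine and valine synthesis, was called, in *ssu72D* (979 ± 49.7 CPM in wt, 821 ± 58.9 CPM in *ssu72D*, -0.26, adjusted p = 0.00971), where *air1* gave 49.6, 51.2 and 47.2 CPM. SPBC26H8.11c, which meets the 3′ end of *dis3*, had 25.1 ± 4.72 CPM in wt and differed from it by 1.17 in *pfs2-F115H*, 1.11 in *ssu72D*, 1.10 in *dis2D* and 1.11 in the libraries labelled *ppn1D* on the log2 scale (adjusted p = 0.0545, 0.0751, 0.0944 and 0.276). SPNCRNA.735 had 1.60 ± 0.734 CPM in wt and 4.61 ± 0.237 CPM in *ssu72D* (1.15, adjusted p = 0.0555). Neither passed.

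The genes whose levels ran most like each member's over the 30 libraries are given as a description. Pearson's r of log2(CPM + 1) was taken against 4777 features with a mean of at least 10 CPM, and libraries of the same strain share their genotype and differ in depth. For *cid14* these were *top2*, DNA topoisomerase II (r = 0.87), and *psm3*, a cohesin subunit (r = 0.85). For *mtr4* they were *dbp10*, a DEAD-box helicase of ribosome assembly (r = 0.86), and *ani1* (r = 0.86). The members resembled each other less: the closest pair was *rrp4* and *air1* (r = 0.65), *cid14* was closest to *air1* (r = 0.61), and *mtr3* reached 0.24 with its closest member. For *dis3* the nearest genes were *htr12* (r = 0.71) and *utp5*, of the small ribosomal subunit processome (r = 0.71), for *rrp41* *vma8* (r = 0.78) and *oca3* (r = 0.77), and for *rrp4* *cbc2*, the small subunit of the nuclear cap-binding complex (r = 0.75), and SPCC330.03c (r = 0.73). For *air1* they were *usp104* (r = 0.79) and SPNCRNA.1684 (r = 0.78), and for *mtr3* *rbx1* (r = 0.66) and *sec67* (r = 0.65).

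The wider decay machinery was read from 6 lists of 34 genes, all of which were tested. Of 306 comparisons with wt, 21 were called higher (6.86%) and 13 lower (4.25%), and over all features 5.54% were called higher and 4.92% lower, so the lists together were near the background. The 6 other core subunits of the exosome (*csl4*, *rrp40*, *rrp42*, *rrp43*, *rrp45*, *rrp46*) gave 1 call in 54 comparisons, lower *csl4* in *PAS-T4A* (-0.40, adjusted p = 0.0474), where 4.06% of features were called lower. It was lost under 4 of 12 other settings and without wt replicate 2 or 3 or *PAS-T4A* replicate 1 or 2. The 3 nuclear cofactors gave 3 calls in 27. *rrp6*, the second nuclease of the nuclear exosome, was lower in *swd22D* (159 ± 9.31 CPM in wt, 118 ± 8.68 CPM in *swd22D*, -0.43, adjusted p = 0.0107; lost without wt replicate 2 or *swd22D* replicate 1), and *cti1* was lower there (-0.61, adjusted p = 0.0397; lost under 7 of 12 other settings and in 5 of 6 fits without a library).

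MTREC, built around the Mtr4-like helicase Mtl1, and Mmi1 bring meiotic and other transcripts to the exosome, and their 8 genes gave 5 higher and 3 lower calls in 72. *mtl1* was higher in *pfs2-F115H* (0.36, SE 0.08, adjusted p = 0.00177, lost under TMM scaling and without the length trend) and in *yth1-R59C* (0.29, adjusted p = 0.0300, called in 6 of 12 other settings and in 1 of 6 fits without a library), and *red5*, a zinc-finger subunit of MTREC, lower in *swd22D* (-0.52, SE 0.13, adjusted p = 0.00353). Of the SKI complex and Ski7, which serve the cytoplasmic exosome, *ski2*, the helicase, was lower (-0.33, adjusted p = 0.00691, lost without *swd22D* replicate 2) and *ski7* higher (0.40, adjusted p = 0.0357, held in 1 of 6 fits that left out a library) in *swd22D*, and the 4 genes were not called elsewhere.

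The 5 nucleotidyltransferases related to Cid14 gave 6 calls in 45 comparisons, all higher (13.3%, against 5.54% over all features), and the 8 exonucleases and deadenylases outside the exosome 14 in 72 (19.4%, against 10.5% in either direction). Most of these come from a few genes called in several strains, and all comparisons share the wt libraries. *cid16*, a terminal uridylyltransferase, gave 110.1, 111 and 98.3 CPM in wt and 185, 162 and 144 CPM in *pfs2-F115H* (0.61, SE 0.10, 1.53-fold, adjusted p = 4.57e-05). It was also higher in *PAS-T4G* (0.53), *yth1-R59C* (0.44), *dis2D* (0.39) and *ssu72D* (0.36), each in 12 of 12 other settings, so it was called in CPF mutants and in a reporter mutant alike. Without wt replicate 3 the calls in *yth1-R59C*, *dis2D* and *ssu72D* were lost (adjusted p = 0.0614, 0.0731 and 0.0758), that in *yth1-R59C* also without *yth1-R59C* replicate 2 and that in *ssu72D* also without *ssu72D* replicate 3. *cid13* was higher in *dis2D* (0.44, adjusted p = 0.0290, called in 6 of 12 other settings and, with a library left out, only without *dis2D* replicate 2), and *cid1*, *cid11* and *cid12* were not called.

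Among the exonucleases, named here partly after their values were seen, *dis32*, the Dis3L2-type nuclease that digests uridylated RNA in the cytoplasm, gave 72.0, 67.0 and 58.4 CPM in wt and 113, 83.9 and 98.0 CPM in *pfs2-F115H*, with no overlap, as for 28.5% of features (0.56, SE 0.11, 1.48-fold, adjusted p = 0.000438). It was higher in *ssu72D* (0.46), *dis2D* (0.39) and *yth1-R59C* (0.39) too, the last call being lost under 5 of 12 other settings and held only without wt replicate 1. The *dis2D* call was lost under 3 of 12 and without wt replicate 3 or *dis2D* replicate 3. *ccr4*, a deadenylase of the Ccr4-Not complex, was lower in *swd22D* (235 ± 13.0 CPM in wt, 165 ± 14.5 CPM in *swd22D*, -0.50, adjusted p = 1.09e-05), in *ssu72D* (-0.36) and in the 3 PAS mutants (-0.25 to -0.33). *pan3*, of the Pan2-Pan3 deadenylase, was higher in the 3 PAS mutants (0.35 to 0.45), and *exo2*, the cytoplasmic 5′ exonuclease, lower in *ssu72D* (-0.41, adjusted p = 7.27e-05). The *ccr4* calls in *swd22D* and *ssu72D* and the *exo2* call held in every setting and fit without a library, while the *ccr4* calls in the PAS mutants and the *pan3* call in *PAS-T4C* were lost without wt replicate 1 (adjusted p from 0.0802 to 0.171) and without 1 or more libraries of the PAS mutant compared.

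The largest change in any list was in the libraries labelled *ppn1D*. *caf1*, the other deadenylase of Ccr4-Not, gave 64.2, 61.3 and 65.2 CPM in wt and 136, 147 and 153 CPM there (1.18, SE 0.10, 2.26-fold, adjusted p = 8.01e-11), where 1.39% of features were called higher. *cti1*, which is linked to the nuclear exosome, had 25.9 ± 0.983 CPM in wt and 46.6 ± 2.40 CPM there (0.82, SE 0.21, adjusted p = 0.0257), a call lost in each of 6 fits that left out a library. Both lie on chromosome III in a stretch of 88 tested features next to *ppn1* that begins at *ssp2*, and the median difference over this stretch was 0.96 in the libraries labelled *ppn1D*, against 0.02 for the other 971 tested features of the chromosome. No member lies on chromosome III, and none was called in these libraries, where 2.44% of features were called in either direction.

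**Figure D4:**
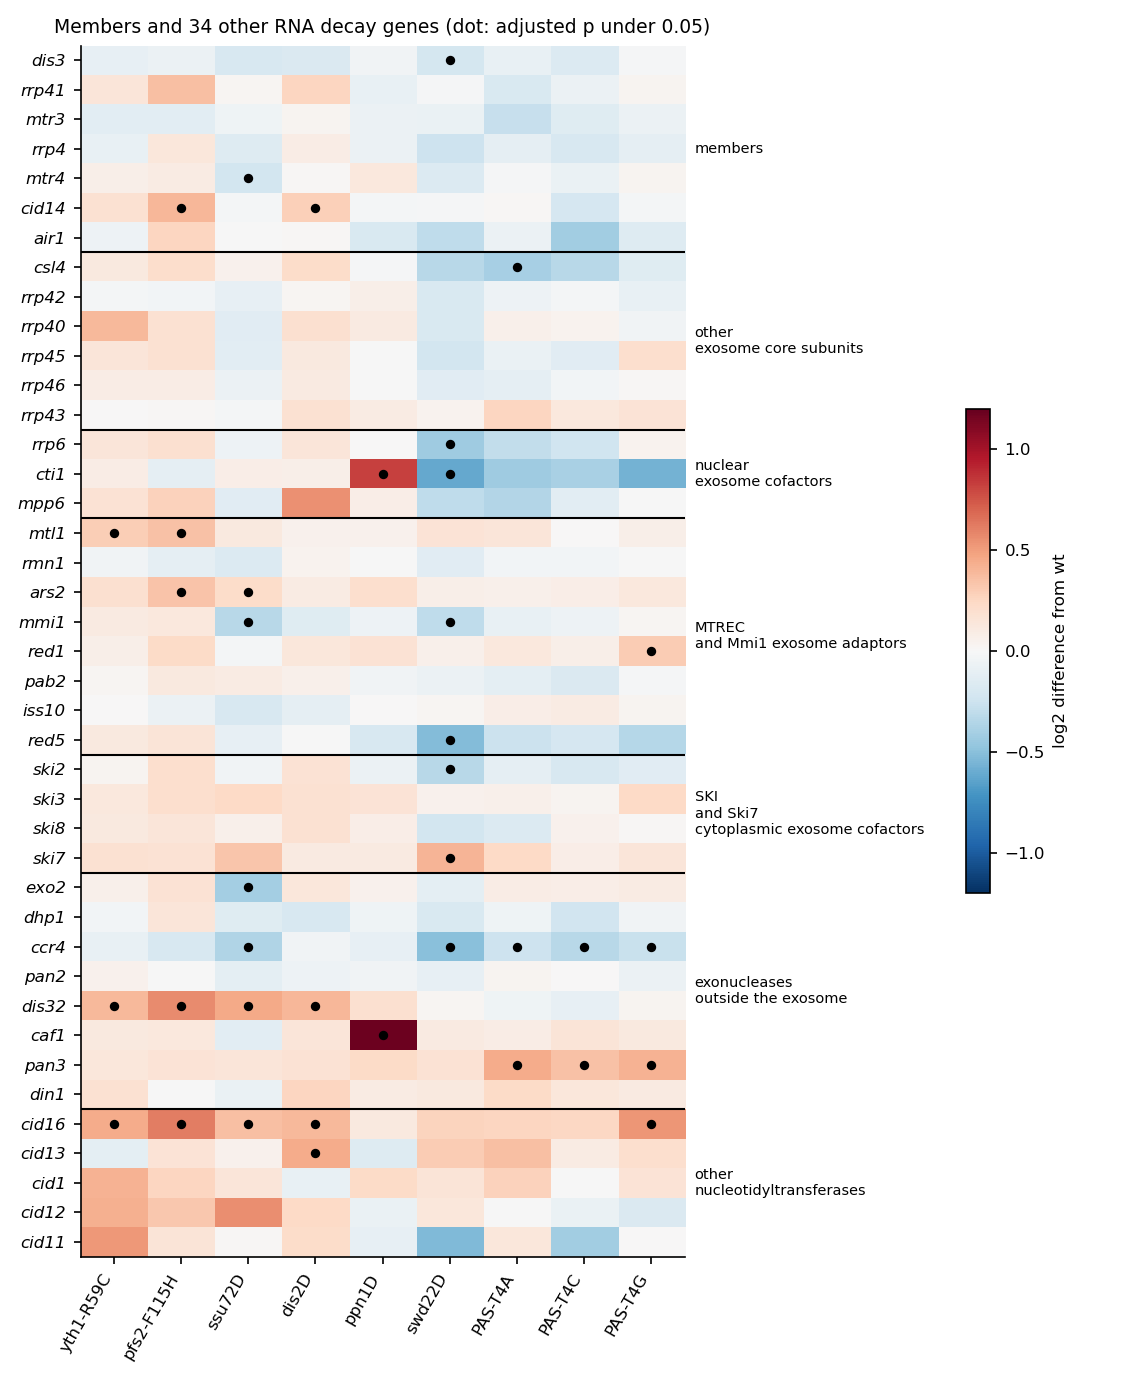
Log2 difference from wt (colour, blue lower and red higher) of the 7 members and 34 other RNA decay genes (rows, grouped by list) in 9 mutants (columns); dots mark an adjusted p under 0.05. The members carry 4 dots and the other genes 34, among them *cid16* and *dis32* in *pfs2-F115H* (0.61 and 0.56) and *caf1* in the libraries labelled *ppn1D* (1.18).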

How the data were processed

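Total RNA-seq of 10 strains with 3 libraries each was used, grouped by the sample labels. Small RNA samples, 7 in number, were not used here. Per the labels and methods, the authors aligned 50-nucleotide single-end reads with STAR (version 2.7.3a) to ASM294v2, counted uniquely mapping reads with featureCounts on the transcribed strand, without reads that overlapped several genes, and deposited CPM, reads scaled to 1000000 per library. Columns summed to between 999741 and 999917 CPM. A read was worth 0.158 to 0.969 CPM and 100% of values were whole reads (within 0.05), so reads were recovered for edgeR (version 4.0.16) and DESeq2 (version 1.42.0) as alternatives. Across the libraries, 3 reads were worth 0.473 to 2.91 CPM.

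A single limma model (version 3.58.1, run in R version 4.3.3, with variance trend and 20 residual degrees of freedom) was applied to log2(CPM + 1) of all 30 libraries for features with a mean of at least 1 CPM, 5911 of 6996, with Benjamini-Hochberg adjustment within each comparison, and a feature was called at an adjusted p under 0.05. Fold changes on this scale understate those of low genes. The scripts were tested on simulated data. Members and lists were chosen with earlier results of these data known. Named were all members, antisense features at their loci, the 2 features most correlated with each, the mutated genes, and from each list genes called with at least 2-fold change or otherwise the 2 largest called changes; *dis32*, *ccr4*, *pan3*, *exo2*, the opposite-strand features and the stretch of chromosome III were chosen after their values were seen. Of 6996 features, 6850 were matched to RefSeq ASM294v3, used for exon lengths and sequence. All windows of 50 bases in the members' exons were unique in that genome (100%).

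As alternatives, the pseudocount was set to 0.1 or 4, the filter was dropped or raised to 10 CPM, and the fit was repeated with median-of-ratios, TMM and quantile scaling, removal of the trend with exon length, only the strains compared, a replicate block, edgeR, DESeq2 and each library left out.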

Additional observations from a re-analysis of the deposited data

How the results depend on the processing

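Over all features the main fit called 10.5% of comparisons with wt and 23.9% of those with the PAS mutants, and 60.1% of features passed the F test. The 4 calls of members against wt became 7 when the trend with exon length was removed. In that setting 2.07% (*PAS-T4C*) to 19.3% (*swd22D*) of features were called against wt. Under the other settings the member calls stayed between 3 and 6. Leaving out 1 library gave 1 (without wt replicate 3) to 4, with 2 without wt replicate 2. The 8 calls against the PAS mutants became 4 under quantile normalization, and 3 (without replicate 1 of every strain) to 9 with libraries left out. The 5 members that passed the test over 10 strains became 3 under median-of-ratios scaling, 2 under quantile normalization, 2 without the length trend and 3 with a replicate block, and 2 to 3 without a replicate number. The 34 calls in the lists ran from 19 (without wt replicate 3) to 35 with a library left out and changed by under 1.5 times elsewhere. The 367 calls of antisense features as higher became 203 with a minimum mean of 10 CPM, and 234 (without wt replicate 2) to 367 with a library left out. Antisense calls in *ssu72D* were 173 by edgeR, against 106. No called difference changed direction under any setting run. Differences of members that were not called did in 30 of 63 comparisons with wt and 14 of 42 with the PAS mutants, each 0.15 or less in size. Median-of-ratios scaling turned the higher and lower calls over all features from 428 and 284 to 252 and 446 in *dis2D*, from 168 and 60 to 102 and 112 in *yth1-R59C*, from 70 and 153 to 81 and 106 in *PAS-T4C*, and from 257 and 268 to 148 and 315 in *PAS-T4G*. Replicate numbers did not pair the libraries (r of deviations from -0.17 to 0.20 over 27 pairs of mutant and wt libraries), and with the replicate block the member calls against wt were 3, *dis3* in *swd22D* being lost (adjusted p = 0.0501). The causes of these differences were not tested. With 3 libraries per strain, the smallest standard error of a member was 0.07 on the log2 scale, which limits what can be called.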

Other observations

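In the libraries labelled *ppn1D*, 69 of the 88 tested features in the stretch of chromosome III that holds *caf1* and *cti1* were called higher, out of 82 called higher in the whole genome. The quartiles of their log2 differences were 0.82 and 1.09, and the median corresponds to 1.95-fold. On the rest of the chromosome 3 of 971 features were called higher. In the other 8 mutants the median over the same stretch was between 0.02 and 0.10. The stretch was chosen after its values were seen, and *ppn1* itself lies beside it and is read in these libraries at the wt level. What sets the stretch apart was not tested.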
